A study of Mus musculus with 9 samples.

Results

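The unfolded protein and integrated stress response was followed here through 33 genes, chosen by symbol from the deposited count table of 45361 gene identifiers. The members comprise 4 stress sensors, 11 chaperones and co-chaperones of the endoplasmic reticulum (ER), 4 protein disulphide isomerases, 5 genes of ER-associated degradation (ERAD), 6 genes of the ATF4 arm and 3 genes of the translocon. Of the 33, 32 passed the filter on low counts that left 12580 genes for testing. Asns, the asparagine synthetase gene, did not pass. Ddit3 has a second identifier that stood at 0 in all 9 libraries and was not tested, so its values below come from the other one.

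The cells are CH12F3, an established mouse B-lymphoma line, here with a knockout of Ligase4, the DNA ligase of non-homologous end joining. Every group carried the knockout and received the same 24 h stimulation, with an antibody to CD40 plus the cytokines IL-4 and TGF-β, and the groups differed in what was added: tazemetostat (TAZ in the plots), valemetostat (VAL) or DMSO, the solvent control. Tazemetostat inhibits EZH2, the enzyme that methylates histone H3 at lysine 27, and valemetostat inhibits both EZH2 and EZH1. Each group had 3 poly(A) RNA-seq libraries, and the comparisons ask how the transcripts of inhibitor-treated cells differ from those of DMSO-treated cells. Doses, the length of inhibitor exposure and the number of knockout clones are not in the labels, and with no library without the knockout its effect could not be examined. The labels do not say that the libraries of a group came from separate cultures, so p-values reflect how much these libraries vary, and that variation may be technical.

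Proteins that enter the secretory pathway fold in the ER with the help of chaperones and disulphide isomerases. When unfolded proteins build up there, 3 sensors in the ER membrane signal to the nucleus: IRE1, which splices the Xbp1 transcript, PERK, which phosphorylates the translation factor eIF2α, and ATF6, which is cut to release a transcription factor. XBP1 and ATF6 raise chaperone and ERAD genes, while eIF2α phosphorylation, which other kinases also bring about under amino acid shortage, slows translation and favours production of ATF4, a transcription factor for amino acid supply and for the CHOP gene Ddit3. The same network enlarges the ER as B cells become antibody-secreting plasma cells.

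Library totals ran from 34080504 to 46675110 counts, so 3 counts corresponded to 0.0643 to 0.088 CPM (library-scaled counts, with TMM factors), a floor that covers counting error only. The B cell identity of the line was visible in all groups. Of 8 B cell marker genes all were measured, and 4 were called higher with each inhibitor and 0 lower. The share called higher was 50%, beside 19.9% of all tested genes with tazemetostat and 20.5% with valemetostat. With an offset for transcript length and GC content 3 and 4 were called higher. The summed level of the 8 was 3343 to 3358 CPM with tazemetostat, 3419.9 to 3581 CPM with valemetostat and 2861 to 3128 CPM with DMSO. T cell markers summed to at most 2.91 CPM in any library. Myeloid markers summed to 29.6 to 33.7 CPM with tazemetostat, 27.6 to 30.8 CPM with valemetostat and 30.0 to 33.3 CPM with DMSO. Of the 4 tested myeloid markers 2 were called higher and 1 lower with each inhibitor, and Cd14 and Mpo stood at or near 0. These shares were 50% and 25%, beside 19.9% and 18.2% of all tested genes with tazemetostat and 20.5% and 18.7% with valemetostat. The sum hides large changes in single myeloid markers. Their log2 fold changes ran from -0.41 to 5.56 with tazemetostat (median 1.07) and from -0.46 to 5.53 with valemetostat (median 1.16). The part of these other cell type markers in the results was not tested.

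Members moved in both directions with each inhibitor, as tested genes at large did, and the changes were small. The ERAD genes Sel1l, Herpud1 and Syvn1, the 5 tested genes of the ATF4 arm and the sensors Ern1 and Atf6 were called lower than with DMSO with both inhibitors, whereas Calr, Creld2, Hsp90b1, Pdia3, Pdia6 and P4hb were called higher. With tazemetostat 6 of the 32 tested members were called higher, a share of 18.8% against 19.9% of all tested genes, and 10 were called lower, 31.2% against 18.2%. With valemetostat 9 members were called higher, 28.1% against 20.5% of all tested genes, and 11 lower, 34.4% against 18.7%. A call is an adjusted p under 0.05 in edgeR's quasi-likelihood test across all tested genes. With tazemetostat the share called higher lay near the background, and the members were not tested as a set. The median log2 fold change of the members was -0.01 with tazemetostat and 0.03 with valemetostat, beside 0.00 and 0.01 over all tested genes, and the members' range ran from -0.59 to 0.27 and from -0.50 to 0.31. In this test Sel1l was the 1 member that moved by 0.5 or more on the log2 scale. Both comparisons rest on the same 3 DMSO libraries, so their calls are not independent: 6 members were called higher and 10 lower in each, 3 were called higher and 1 lower with valemetostat alone, and 12 were called in neither. In RNA from whole cultures, fewer cells that express a gene and less RNA per cell cannot be told apart.

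**Figure D1:**
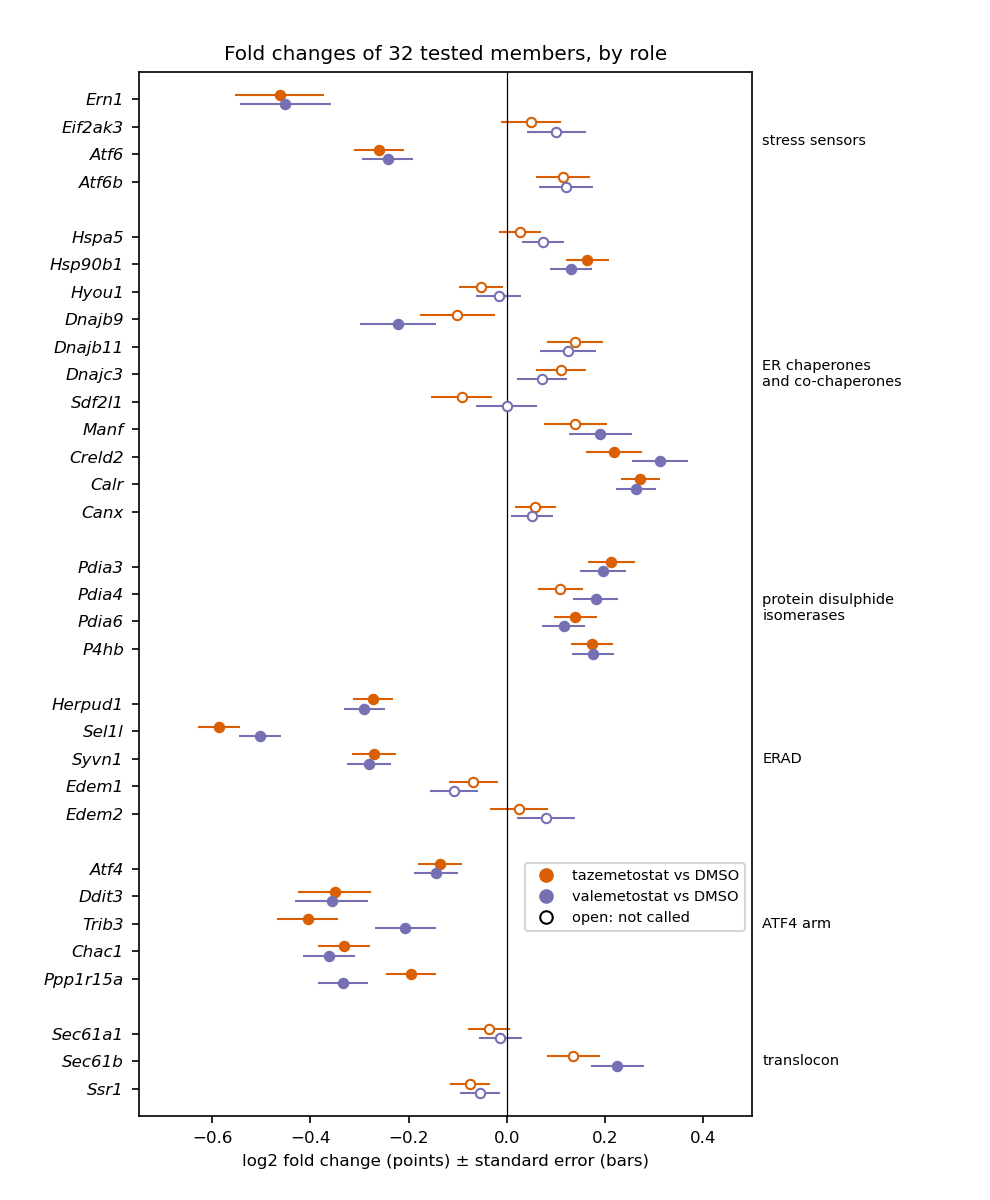
Log2 fold change (horizontal axis) of each of the 32 tested members (vertical axis, grouped by role), for tazemetostat and valemetostat against DMSO. Bars are standard errors and open symbols mark members not called. ERAD and ATF4 arm members lie left of 0 except Edem2, Sel1l lies farthest left at -0.59 with tazemetostat, and all 4 disulphide isomerases lie right of 0.

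The promoters of the members hold more of the known response element than promoters at large. The members were chosen as genes of this response, so that excess is not a finding of these data. The element is shown here because the genes that carry it did not move together. The RefSeq promoter table (GRCm38.p6) matched 29 of the 33 members. Atf6, Hyou1, Manf and Sec61a1 have no entry. In the 250 bases before the start, searched on both strands, the ER stress response element (ERSE, read as CCAAT, 9 bases of any kind, then CCACG) was found in 8 of 29 members, 27.6%, against 35 of 27025 genes, 0.13%. Promoter coordinates are of GRCm38.p6, whereas the deposited counts were made on mm9, and none were carried between builds. The 9 ERSE sites, written 5′ to 3′ on the strand of the motif with its fixed bases in capitals, were:

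Calr: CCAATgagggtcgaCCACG
Canx: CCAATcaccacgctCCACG
Creld2: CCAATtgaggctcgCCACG
Dnajc3: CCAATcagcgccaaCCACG
Hsp90b1: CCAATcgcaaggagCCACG
Hsp90b1: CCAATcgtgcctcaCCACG
Hspa5: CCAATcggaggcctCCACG
Pdia6: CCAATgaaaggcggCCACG
Syvn1: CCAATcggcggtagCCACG

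Of these 8 genes, Calr, Creld2, Hsp90b1 and Pdia6 were called higher with both inhibitors, Syvn1 was called lower with both, and Hspa5, Canx and Dnajc3 were not called with either. The window of Hspa5, whose product BiP is the main ER chaperone, lies at chr2:34771840-34772089 on the plus strand, with its ERSE from 65 to 47 bases before the start in capitals:

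Hspa5: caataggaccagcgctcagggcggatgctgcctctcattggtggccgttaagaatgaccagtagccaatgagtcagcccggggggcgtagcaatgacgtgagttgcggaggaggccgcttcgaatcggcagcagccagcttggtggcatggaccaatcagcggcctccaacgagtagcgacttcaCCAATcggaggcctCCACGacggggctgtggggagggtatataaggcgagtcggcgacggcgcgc

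A shorter element, ERSE-II (ATTGG, 1 base, then CCACG), was found in 1 of 29 members, Herpud1, 3.45%, against 0.037% of genes. The composite site bound by ATF4 with C/EBP factors (TGATG, 1 base, then AA) was found in Asns, Chac1 and Herpud1, 3 of 29 members or 10.3%, against 3.91% of genes. The XBP1 element UPRE, searched as TGACGTGG, was found in 0 of 29 members and 0.603% of genes. A match describes letters in these windows only. The windows of the 3 genes with a composite site are given with their matches in capitals (the composite sites of Herpud1 and Chac1 lie on the other strand and appear as the reverse complement, and in Herpud1 the ERSE-II lies nearest the start), since 2 of them were called lower with both inhibitors and Asns stood at or near 0. They lie at chr8:94386179-94386428 on the plus strand, chr2:119350992-119351241 on the plus strand and chr6:7693210-7693459 on the minus strand.

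Herpud1: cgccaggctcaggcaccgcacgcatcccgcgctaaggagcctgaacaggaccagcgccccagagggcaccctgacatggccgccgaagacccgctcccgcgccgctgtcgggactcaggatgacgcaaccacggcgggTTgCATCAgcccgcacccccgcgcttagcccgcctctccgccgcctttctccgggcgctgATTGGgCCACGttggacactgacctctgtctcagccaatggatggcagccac
Chac1: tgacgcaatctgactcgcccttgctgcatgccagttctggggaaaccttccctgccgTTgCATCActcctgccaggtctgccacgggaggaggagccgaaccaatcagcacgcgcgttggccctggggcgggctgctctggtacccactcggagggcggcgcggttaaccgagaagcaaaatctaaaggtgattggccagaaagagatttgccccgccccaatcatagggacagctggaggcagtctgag
Asns: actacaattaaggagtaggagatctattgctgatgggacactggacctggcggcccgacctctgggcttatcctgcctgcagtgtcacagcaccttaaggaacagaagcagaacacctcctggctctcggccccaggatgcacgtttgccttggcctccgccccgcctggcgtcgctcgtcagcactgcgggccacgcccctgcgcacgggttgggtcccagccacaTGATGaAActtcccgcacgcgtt

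Among the stress sensors, Ern1 and Atf6 were lower with both inhibitors, by 27.5% and 26.9% for Ern1, while Eif2ak3 and Atf6b were not called. Ern1, which encodes IRE1, had 13.7, 16 and 16.6 CPM with tazemetostat, 15.1, 16.3 and 15.2 CPM with valemetostat, and 22.3, 21.7 and 19.7 CPM with DMSO. All 6 inhibitor libraries lay below all 3 DMSO libraries. The log2 fold change of Ern1 was -0.46 ± 0.09 (SE, adjusted p = 0.000243) with tazemetostat and -0.45 ± 0.09 (adjusted p = 0.000322) with valemetostat. Atf6, the sensor that is itself cut into a transcription factor, had 108, 107 and 111 CPM with tazemetostat, 116, 113 and 101 CPM with valemetostat, and 134, 130.5 and 127 CPM with DMSO. Neither inhibitor group overlapped DMSO, although the third valemetostat library stood below the other 2. The log2 fold change of Atf6 was -0.26 ± 0.05 (adjusted p = 0.00026) with tazemetostat and -0.24 ± 0.05 (adjusted p = 0.000493) with valemetostat. With an offset for transcript length and GC content the valemetostat value of Atf6 was -0.12 and its call was lost (adjusted p = 0.0901).

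Eif2ak3, which encodes PERK, had 48, 48.9 and 45.2 CPM with tazemetostat, 48.1, 48.7 and 50.5 CPM with valemetostat, and 45.5, 48.3 and 43.6 CPM with DMSO. These ranges overlap, and its log2 fold changes were 0.05 ± 0.06 (adjusted p = 0.567) and 0.10 ± 0.06 (adjusted p = 0.206). Its exons share 485 bases with a gene model on the other strand, and the sources used here do not say whether counting used strand. Atf6b, the paralogue of Atf6, had 97.6, 87.5 and 101 CPM with tazemetostat, 96.3, 98 and 93 CPM with valemetostat, and 91.4, 87.4 and 85.2 CPM with DMSO. Its log2 fold changes were 0.11 ± 0.06 (adjusted p = 0.104) and 0.12 ± 0.06 (adjusted p = 0.0813), opposite in sign to those of Atf6 but not called. Without the second tazemetostat library the tazemetostat value of Atf6b passed (0.17, adjusted p = 0.0232).

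Of the 11 chaperones and co-chaperones, 3 were called higher with tazemetostat, 27.3% beside 19.9% of all tested genes. With valemetostat 4 were called higher, 36.4% beside 20.5%, and 1 lower, 9.09% beside 18.7%. BiP itself did not pass the test. Hspa5 had 1384, 1385 and 1471 CPM with tazemetostat, 1479.7, 1502 and 1398 CPM with valemetostat, and 1374, 1375 and 1412 CPM with DMSO. The groups overlap, and the log2 fold changes were 0.03 ± 0.04 (95% interval -0.06 to 0.12, adjusted p = 0.656) and 0.07 ± 0.04 (-0.01 to 0.16, adjusted p = 0.18). Calr, which encodes the lectin chaperone calreticulin, had 1134, 1129 and 1155 CPM with tazemetostat, 1146, 1142 and 1109 CPM with valemetostat, and 939, 949.9 and 942 CPM with DMSO. All inhibitor libraries stood above all DMSO libraries, and the spread within each group was narrow. Calr rose by 20.7% with tazemetostat (log2 fold change 0.27 ± 0.04, adjusted p = 5.23e-06) and by a log2 fold change of 0.26 ± 0.04 with valemetostat (adjusted p = 7.86e-06).

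Creld2, which encodes an ER protein with disulphide isomerase activity, had 78.2, 73.7 and 77.5 CPM with tazemetostat, 80.5, 87.5 and 76.9 CPM with valemetostat, and 66.7, 62.6 and 67.8 CPM with DMSO. Neither inhibitor group overlapped DMSO, and its log2 fold changes were 0.22 ± 0.06 (adjusted p = 0.00341) and 0.31 ± 0.06 (adjusted p = 9.25e-05). Manf, which encodes a secreted ER stress protein that binds BiP, had 152, 159 and 182 CPM with tazemetostat, 165, 181 and 164 CPM with valemetostat, and 161, 138 and 147 CPM with DMSO. The valemetostat libraries lay just above the DMSO range and the tazemetostat libraries overlapped it. Manf was called higher with valemetostat at 0.19 ± 0.06 (adjusted p = 0.0245) and not with tazemetostat at 0.14 ± 0.06 (adjusted p = 0.0973), and the 2 inhibitors were not shown to differ (0.05 ± 0.06, adjusted p = 0.902). Its valemetostat call was lost without the second valemetostat library (adjusted p = 0.109), the second DMSO library (adjusted p = 0.119) or the third DMSO library (adjusted p = 0.0892), and with the length and GC offset (0.13, adjusted p = 0.137). Conversely, without the first tazemetostat library or the first DMSO library it was called with tazemetostat (adjusted p = 0.0326 and 0.0229).

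In the counts with TMM scaling Dnajb9 was the 1 chaperone gene called lower, with valemetostat. Its product ERdj4 is a BiP co-chaperone that holds IRE1 inactive and is a standard target of XBP1. It had 23.7, 23.3 and 25.5 CPM with tazemetostat, 23.2, 22.1 and 21.3 CPM with valemetostat, and 24.2, 26.7 and 26.9 CPM with DMSO. The valemetostat libraries all lay below the DMSO libraries and the tazemetostat libraries overlapped them. Dnajb9 fell with valemetostat (-0.22 ± 0.08, adjusted p = 0.0228) and was not called with tazemetostat (-0.10 ± 0.08, adjusted p = 0.317). The call was lost without the second or the third valemetostat library (adjusted p = 0.0678 and 0.0926). It was also lost without the second or the third DMSO library (adjusted p = 0.0855 and 0.0819). For Dnajb9 the inhibitors were not shown to differ (-0.12 ± 0.08, adjusted p = 0.745). Sdf2l1 and Hyou1 also had log2 fold changes below 0 with tazemetostat, at -0.09 and -0.05, and were not called.

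Hsp90b1, which encodes the ER HSP90 protein GRP94, averaged 1262 ± 6.41 CPM with tazemetostat, 1233 ± 53.6 CPM with valemetostat and 1127 ± 45.8 CPM with DMSO (SD, n = 3 each). It was called higher with both, at 0.16 ± 0.04 (adjusted p = 0.00402) and 0.13 ± 0.04 (adjusted p = 0.0187). The valemetostat call was lost without the first valemetostat library (adjusted p = 0.138), the first DMSO library (adjusted p = 0.0835) or the second DMSO library (adjusted p = 0.0543). Of its exon bases, 611 are shared with other gene models. The other 5 members of the group were called with neither inhibitor: Hyou1, a nucleotide exchange factor of BiP, Canx, the membrane-bound lectin chaperone calnexin, and Dnajb11, Dnajc3 and Sdf2l1, which are or assist BiP co-chaperones. Their log2 fold changes ran from -0.09 for Sdf2l1 to 0.14 for Dnajb11 with tazemetostat and from -0.02 for Hyou1 to 0.12 for Dnajb11 with valemetostat. Dnajb11 passed the test with tazemetostat without the second or the third valemetostat library (adjusted p = 0.0264 and 0.0432), and with valemetostat without the third valemetostat library (adjusted p = 0.0244). Dnajc3 passed with tazemetostat without the third tazemetostat library (adjusted p = 0.0324).

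Of the 4 disulphide isomerases, 3 were called higher with tazemetostat and 4 with valemetostat in the counts. These shares, 75% and 100%, stood beside 19.9% and 20.5% of all tested genes. Pdia3, the isomerase that works with calreticulin and calnexin, had 556, 595 and 575 CPM with tazemetostat, 589.8, 577 and 538 CPM with valemetostat, and 469, 497 and 523 CPM with DMSO. P4hb, which encodes the archetypal protein disulphide isomerase, had 693, 669.7 and 712 CPM with tazemetostat, 677, 685 and 715 CPM with valemetostat, and 588, 613 and 637 CPM with DMSO. In both genes every inhibitor library lay above every DMSO library. The log2 fold changes were 0.21 ± 0.05 (adjusted p = 0.000803) and 0.20 ± 0.05 (adjusted p = 0.00168) for Pdia3, and 0.17 ± 0.04 (adjusted p = 0.00242) and 0.18 ± 0.04 (adjusted p = 0.00207) for P4hb.

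Pdia4, which encodes the isomerase ERp72, had 185, 190.1 and 186 CPM with tazemetostat, 202, 201 and 186 CPM with valemetostat, and 167, 174 and 181 CPM with DMSO. Both inhibitor groups lay above DMSO, and Pdia4 was called with valemetostat (0.18 ± 0.05, adjusted p = 0.00266) but not with tazemetostat (0.11 ± 0.05, adjusted p = 0.0634), while the inhibitors were not shown to differ (adjusted p = 0.747). Without the third DMSO library or the third valemetostat library the tazemetostat value passed (adjusted p = 0.0287 and 0.0433). Pdia6, which encodes an isomerase that also binds the IRE1 sensor, had 637, 643 and 688 CPM with tazemetostat, 649, 665 and 623 CPM with valemetostat, and 599, 578 and 611 CPM with DMSO. Here too both inhibitor groups lay above DMSO, but the differences were small, at 0.14 ± 0.04 (adjusted p = 0.014) and 0.12 ± 0.04 (adjusted p = 0.0381). The tazemetostat call of Pdia6 was lost without the third tazemetostat library (adjusted p = 0.0701) or the second DMSO library (adjusted p = 0.0828). Its valemetostat call was lost without the first or second valemetostat library, the first or second DMSO library or the second tazemetostat library, with adjusted p from 0.0519 to 0.154, with the replicate block (adjusted p = 0.0545), with library totals in place of TMM (adjusted p = 0.0516), and with the length and GC offset, where its value was 0.05 (adjusted p = 0.211).

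The rises depended on the scale. Summed over the 4 isomerases, the level was 2071 to 2161 CPM with tazemetostat, 2063 to 2129 CPM with valemetostat and 1823 to 1952 CPM with DMSO. In the deposited TPM (library-scaled transcript abundances, which are per length) the sum was 1125 to 1139.9 with tazemetostat, 1111 to 1146 with valemetostat and 1039 to 1093 with DMSO, the inhibitor sums still above those of DMSO but closer. For the 11 chaperones the sum was 5318 to 5460.2 CPM with tazemetostat, 5214 to 5492 CPM with valemetostat and 4912 to 5019 CPM with DMSO, whereas in TPM it was 3092 to 3125, 3044 to 3239.6 and 2958 to 3118 in the same groups, which overlap. The deposited log2(TPM + 1) values were also tested with limma-trend. There 1 member was called higher with tazemetostat and 2 with valemetostat, in place of 6 and 9. Members called lower numbered 10 and 11 on both scales. Calls over all tested genes shifted too: with tazemetostat 1177 were higher and 1946 lower, in place of 2508 and 2286. With valemetostat 1191 were higher and 2117 lower, in place of 2577 and 2350. The median over all tested genes was -0.07 with each inhibitor on that scale. The members still higher there were Calr with both inhibitors (0.16, adjusted p = 0.0225, and 0.14, adjusted p = 0.04) and Creld2 with valemetostat (0.22, adjusted p = 0.0117). None of the disulphide isomerases was called on that scale, with adjusted p from 0.0828 for Pdia3 to 0.345 for Pdia6 among those called in the counts with tazemetostat.

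**Figure D2:**
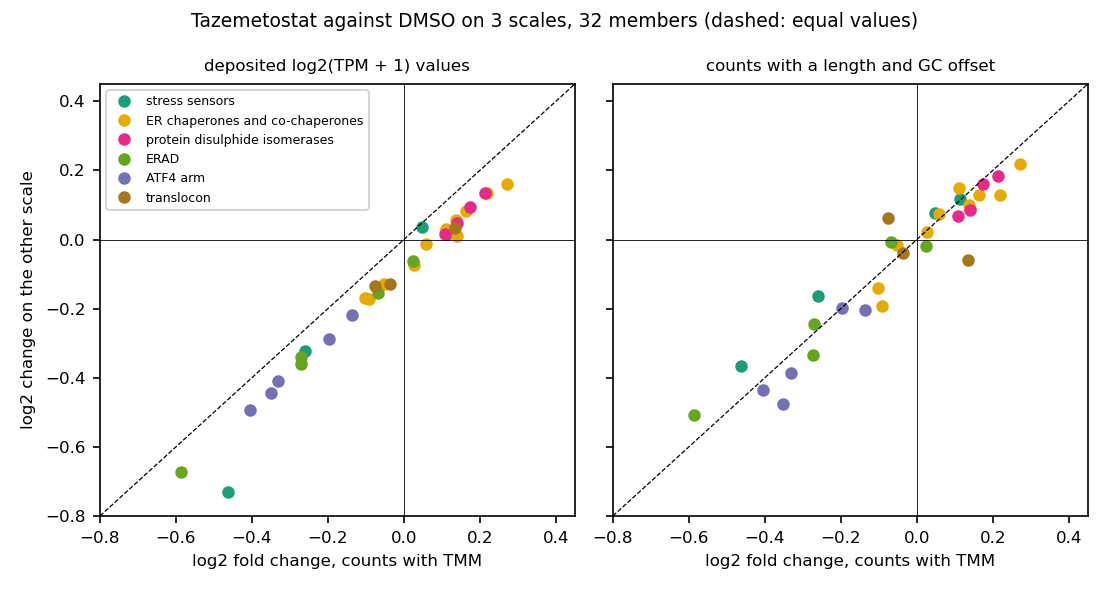
Log2 fold change of the 32 tested members in the counts with TMM scaling (horizontal axis) against the log2 difference in the deposited log2(TPM + 1) values (left panel, vertical axis) and against the log2 fold change in counts with a length and GC offset (right panel), all for tazemetostat against DMSO. Colours give the role, and the dashed line marks equal values. On the left nearly all points lie below the line, with Calr at 0.16 in place of 0.27. The median over all tested genes was also lower on that scale, at -0.07 in place of 0.00. Sel1l, Herpud1, Syvn1 and the 5 ATF4 arm genes lie below 0 in both panels.

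In the counts with TMM scaling the ERAD genes included the largest change of the module, in Sel1l. In the deposited log2(TPM + 1) values Ern1 moved further, at -0.73 against -0.67 with tazemetostat and -0.57 against -0.47 with valemetostat. With the length and GC offset Sel1l moved furthest with tazemetostat (-0.51), and Ddit3 with valemetostat (-0.51 against -0.40 for Sel1l). ERAD moves misfolded proteins out of the ER for destruction by the proteasome. Sel1l, which encodes the adaptor of its central ubiquitin ligase, had 177, 172 and 166 CPM with tazemetostat, 186, 177 and 183 CPM with valemetostat, and 258, 266 and 252 CPM with DMSO. No inhibitor library came within the DMSO range. Sel1l fell by 33.4% with tazemetostat (log2 fold change -0.59 ± 0.04, adjusted p = 5.38e-11) and by 29.4% with valemetostat (-0.50 ± 0.04, adjusted p = 9.5e-10). Syvn1, which encodes that ligase, HRD1, had 103, 104 and 104 CPM with tazemetostat, 101, 103 and 105 CPM with valemetostat, and 125, 126 and 124 CPM with DMSO. The 3 libraries of each group lay close together and the inhibitor groups lay below DMSO, with log2 fold changes of -0.27 ± 0.04 (adjusted p = 3.21e-05) and -0.28 ± 0.04 (adjusted p = 2.07e-05). Its exons share 91 bases with Mrpl49 on the other strand.

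Herpud1, which encodes a membrane protein of the same ligase complex and whose promoter holds both elements shown above, had 293, 301 and 300.1 CPM with tazemetostat, 299, 299 and 285 CPM with valemetostat, and 356, 359.5 and 365 CPM with DMSO. Both inhibitor groups lay well below DMSO, at -0.27 ± 0.04 (adjusted p = 7.95e-06) and -0.29 ± 0.04 (adjusted p = 3.17e-06). Edem1 and Edem2, which help select misfolded glycoproteins for ERAD, were not called. With each inhibitor 3 of the 5 ERAD members were thus called lower, 60% beside 18.2% and 18.7% of all tested genes. Edem1 averaged 105 ± 4.3 CPM with tazemetostat, 102 ± 3.55 CPM with valemetostat and 109.9 ± 2.3 CPM with DMSO, and Edem2 averaged 68.8 ± 4.8, 71.4 ± 4.47 and 67.6 ± 1.19 CPM in the same groups (SD, n = 3 each). Summed over the 5 ERAD members the level was 745 to 752 CPM with tazemetostat, 746 to 759 CPM with valemetostat and 915 to 929 CPM with DMSO, and in TPM it was 359 to 371, 357 to 375 and 449 to 483 in that order of groups. The fall in the sum thus appeared on both scales.

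All 5 tested genes of the ATF4 arm were called lower with both inhibitors, beside 18.2% and 18.7% of all tested genes. Atf4 itself had 508, 520.5 and 540.0 CPM with tazemetostat, 544, 527 and 488 CPM with valemetostat, and 568, 562 and 593 CPM with DMSO. The inhibitor libraries lay below the DMSO libraries by a margin that was small beside their spread. The log2 fold changes were -0.14 ± 0.05 (adjusted p = 0.0193) with tazemetostat and -0.14 ± 0.04 (adjusted p = 0.0131) with valemetostat. The tazemetostat call was lost without the first tazemetostat library (adjusted p = 0.103), the second (adjusted p = 0.0651) or the third DMSO library (adjusted p = 0.0673), and the valemetostat call without the third valemetostat library (adjusted p = 0.119) or the third DMSO library (adjusted p = 0.0554). These are transcript levels, and ATF4 protein is controlled largely at translation.

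Ddit3, which encodes the transcription factor CHOP, had 30.3, 31.3 and 27.4 CPM with tazemetostat, 31.1, 29.2 and 28.5 CPM with valemetostat, and 41.4, 34.7 and 37.3 CPM with DMSO. Its inhibitor libraries all lay below the DMSO libraries, which themselves varied by more. The log2 fold changes were -0.35 ± 0.08 (adjusted p = 0.00056) and -0.36 ± 0.08 (adjusted p = 0.000472). Its exons share 68 bases with Mars, the methionyl-tRNA synthetase gene, on the other strand. Chac1, which encodes a glutathione-degrading enzyme induced by ATF4 and CHOP and whose promoter window is shown above, had 90.5, 96.4 and 100.003 CPM with tazemetostat, 94.7, 90.1 and 95.9 CPM with valemetostat, and 127, 121 and 113 CPM with DMSO. Both inhibitor groups lay below DMSO, with log2 fold changes of -0.33 ± 0.05 (adjusted p = 1.75e-05) and -0.36 ± 0.05 (adjusted p = 5.27e-06).

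Trib3, which encodes a pseudokinase that restrains ATF4, had 74.2, 79.2 and 91.6 CPM with tazemetostat, 94.4, 98.5 and 88.3 CPM with valemetostat, and 112, 106 and 107 CPM with DMSO. Both inhibitor groups lay below DMSO and overlapped each other, and the tazemetostat libraries spread widely. The log2 fold changes were -0.41 ± 0.06 (adjusted p = 1.28e-05) with tazemetostat and -0.21 ± 0.06 (adjusted p = 0.00996) with valemetostat, and the second was not called without the third valemetostat library (adjusted p = 0.0774). Ppp1r15a, which encodes GADD34, the stress-induced subunit that directs a phosphatase to eIF2α, had 68.4, 68 and 69.1 CPM with tazemetostat, 61.5, 62.6 and 62.7 CPM with valemetostat, and 80.5, 78.8 and 76.1 CPM with DMSO. The 3 groups stood apart from each other, with log2 fold changes against DMSO of -0.20 ± 0.05 (adjusted p = 0.00336) and -0.33 ± 0.05 (adjusted p = 1.12e-05). Asns had 2 counts in the second tazemetostat library, 0.0466 CPM, and 0 counts in the other 8 libraries, which allows up to 0.088 CPM in the shallowest. The summed level of the arm was 771 to 828 CPM with tazemetostat, 764 to 826 CPM with valemetostat and 903 to 928 CPM with DMSO, and in TPM it was 662 to 683, 647 to 705 and 809 to 837 in the same groups.

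**Figure D3:**
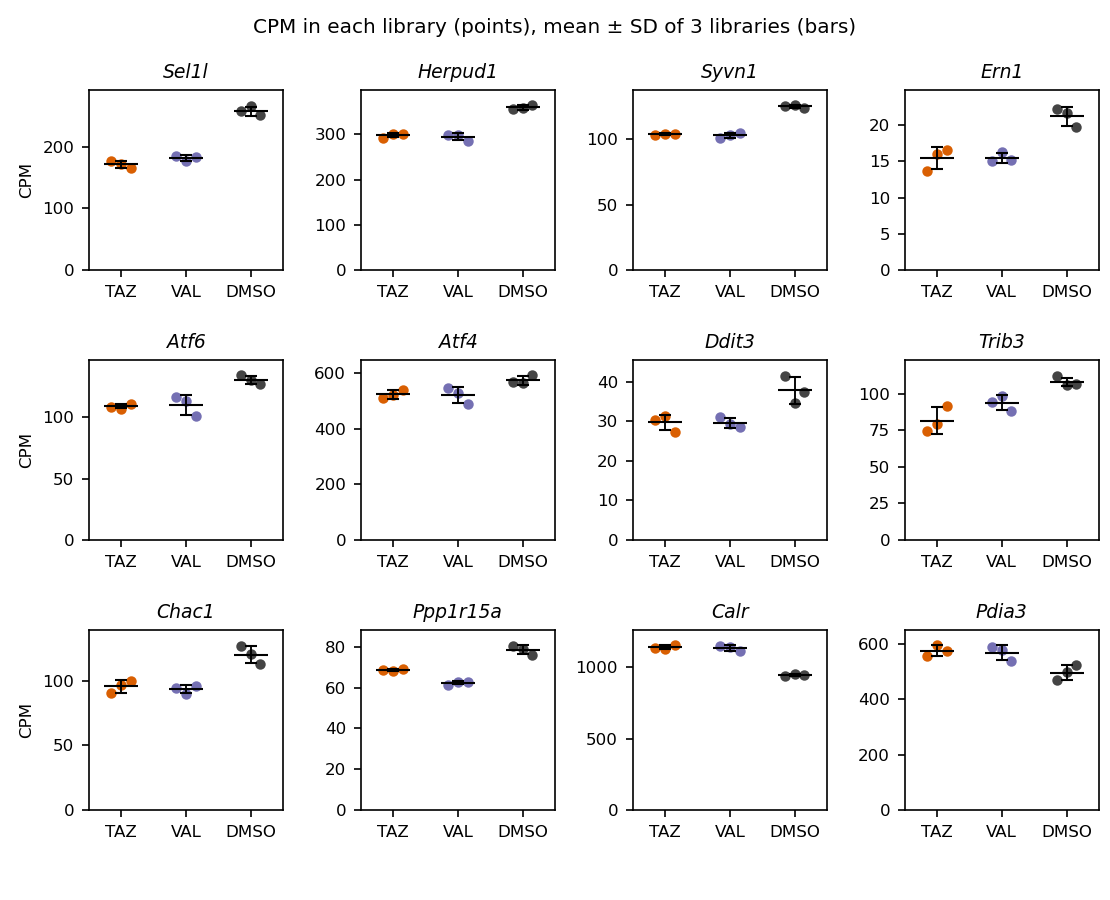
CPM (vertical axes, from 0) in each library of 12 members, by group, with the mean and SD of 3 libraries as bars. In the ERAD, sensor and ATF4 arm genes shown, all tazemetostat (TAZ) and valemetostat (VAL) libraries lie below all DMSO libraries. Sel1l has at most 186 CPM against at least 252 CPM. In Calr and Pdia3 the inhibitor libraries lie above. Edem1, Edem2, Eif2ak3 and Atf6b, which were not called, are not shown.

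The products of the 3 translocon genes form or flank the channel through which new proteins enter the ER. With tazemetostat 0 of the 3 passed the edgeR test (1 at an unadjusted p under 0.05, and 0 in DESeq2). With valemetostat 1 was called higher, 33.3% beside 20.5% of all tested genes. Sec61b, a channel subunit, had 103, 110.0 and 114 CPM with tazemetostat, 115, 121 and 111 CPM with valemetostat, and 103, 91.8 and 102 CPM with DMSO. The valemetostat libraries lay above the DMSO range (0.23 ± 0.05, adjusted p = 0.00165), and the tazemetostat libraries began at its upper end (0.14 ± 0.05, adjusted p = 0.0511). The inhibitors were not shown to differ (0.09 ± 0.05, adjusted p = 0.714). The tazemetostat value of Sec61b passed without the first tazemetostat library, the second or the third valemetostat library, or the first or the third DMSO library, with adjusted p from 0.0287 to 0.0482. With the length and GC offset the valemetostat value was 0.01 and not called (adjusted p = 0.887), and Sec61b is the shortest member, with 564 exon bases in the annotation used for lengths. Sec61a1, the channel itself, and Ssr1, a translocon-associated subunit, were not called, with log2 fold changes of -0.04 and -0.07 for tazemetostat and -0.01 and -0.05 for valemetostat. The offset turned the valemetostat value of Ssr1 to 0.13 (adjusted p = 0.0303).

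Fold changes were related to transcript length in these libraries. Across 8983 genes of at least 3 log2 CPM, Spearman's rho between length and log2 fold change was -0.35 with tazemetostat and -0.41 with valemetostat, across genes, which are not independent replicates. In single libraries, as deviations from the mean of all, it was -0.45 to -0.01 with tazemetostat, -0.46 to -0.24 with valemetostat and 0.21 to 0.49 with DMSO. Over the 32 members the value for the fold changes was -0.14 and -0.25. The members' median length was 2668 nt against 2989.5 nt for all tested genes. Within the fit that offsets length and GC content, the ATF4 arm kept 5 of 5 genes called lower with each inhibitor. The ERAD group kept 3 of 5 called lower, and the disulphide isomerases had 3 of 4 called higher, with each. Of the 12580 tested genes that fit called 2434 higher and 2419 lower with tazemetostat, and 2388 higher and 2465 lower with valemetostat. Sdf2l1 was called lower under the offset, at -0.19 with tazemetostat (adjusted p = 0.00243) and -0.13 with valemetostat (adjusted p = 0.039), and Dnajc3 was called higher, at 0.15 (adjusted p = 0.00635) and 0.13 (adjusted p = 0.0173).

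Set per length, the members covered more than 2 orders of magnitude. In DMSO the highest mean levels were those of Hspa5 (727 ± 18.7 TPM), Calr (689 ± 27.7 TPM), Hsp90b1 (563 ± 20.2 TPM) and Atf4 (505 ± 5.78 TPM), each a mean ± SD of 3 libraries. With tazemetostat Calr stood above Hspa5 in each library, at 784, 761 and 763 TPM for Calr and 695, 685 and 691 TPM for Hspa5. The same held with valemetostat, at 786, 764 and 721 TPM for Calr and 754, 710.3 and 701 TPM for Hspa5. With DMSO Hspa5 was the higher in each library, at 673, 721 and 672 TPM for Calr and 729, 744 and 707 TPM for Hspa5, although the ranges overlapped. The lowest members above 0 were the sensors Ern1 (5.98 ± 0.75 TPM in DMSO) and Eif2ak3 (14.3 ± 1.38 TPM) and the co-chaperone gene Dnajb9 (15.1 ± 1.06 TPM). Eif2ak3 and Dnajb9 did not differ beyond their spread.

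**Figure D4:**
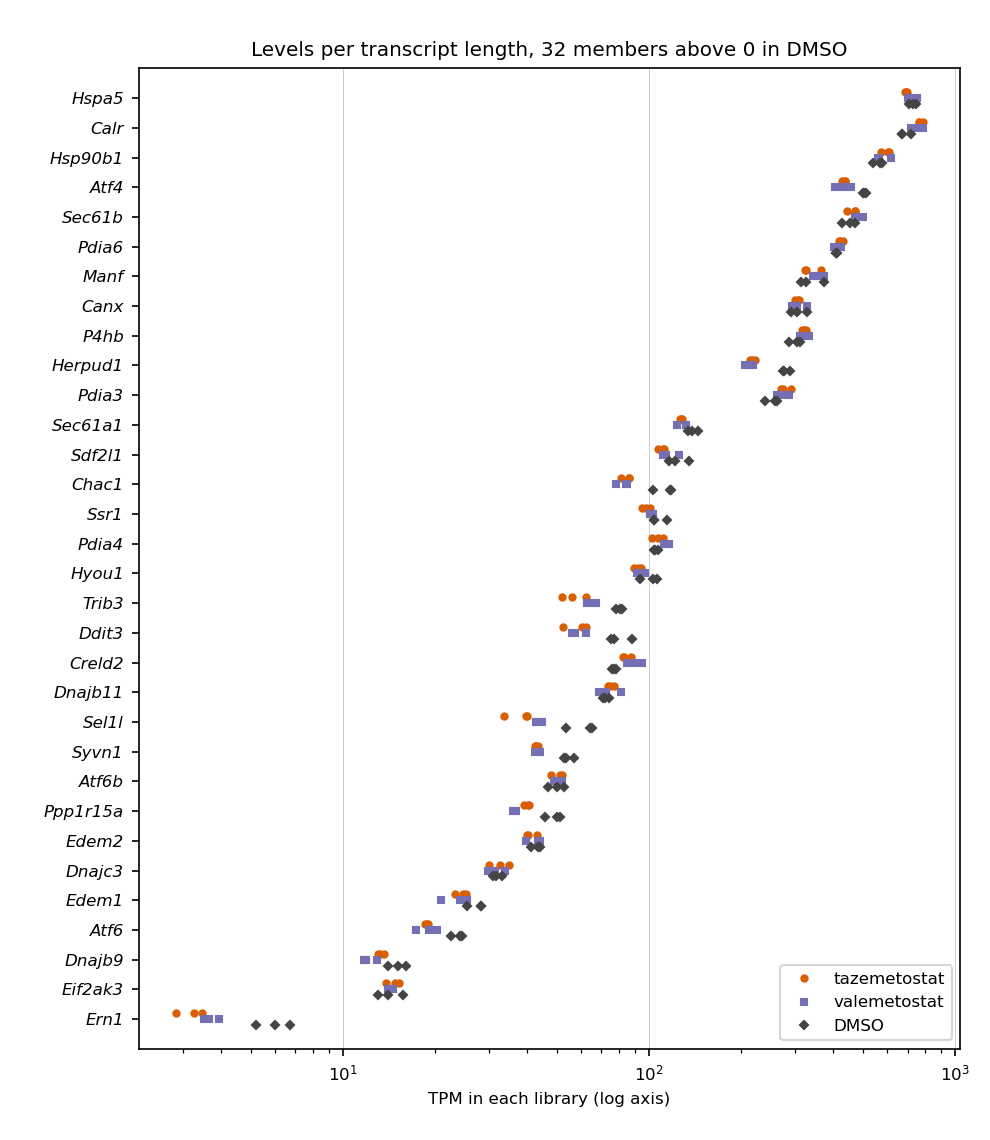
TPM in each library (horizontal log axis) of the 32 members above 0 in DMSO, ordered by their DMSO mean, with 1 symbol shape per group. Hspa5 is highest at a mean of 727 TPM and Ern1 lowest at 5.98 TPM in DMSO, and Sel1l, Ern1, Ddit3 and Trib3 show the inhibitor libraries left of the DMSO libraries.

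Set against each other, valemetostat and tazemetostat gave no called difference in any of the 32 members in edgeR, with 0 higher and 0 lower, and 0 in DESeq2. Of all tested genes 0.0636% were called higher and 0.254% lower. At an unadjusted p under 0.05 there were 2 members, 6.25%, against 7.94% of all tested genes. Those were Trib3, higher with valemetostat by 0.20 ± 0.06 (95% interval 0.07 to 0.33, unadjusted p = 0.00386, adjusted p = 0.277), and Ppp1r15a, lower by 0.14 (log2 fold change -0.14 ± 0.05, 95% interval -0.24 to -0.03, unadjusted p = 0.0135, adjusted p = 0.446). Without the third tazemetostat library Trib3 was called (0.28, adjusted p = 0.0221). For Sel1l the difference was 0.08 (95% interval -0.01 to 0.17), for Atf4 -0.01 (-0.10 to 0.09) and for Hspa5 0.05 (-0.04 to 0.13). Over all members the intervals reached from -0.28 for Dnajb9 to 0.33 for Trib3. A missed threshold does not show that the compounds act alike, and since their doses are not in the labels the comparison is of these treatments.

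**Figure D5:**
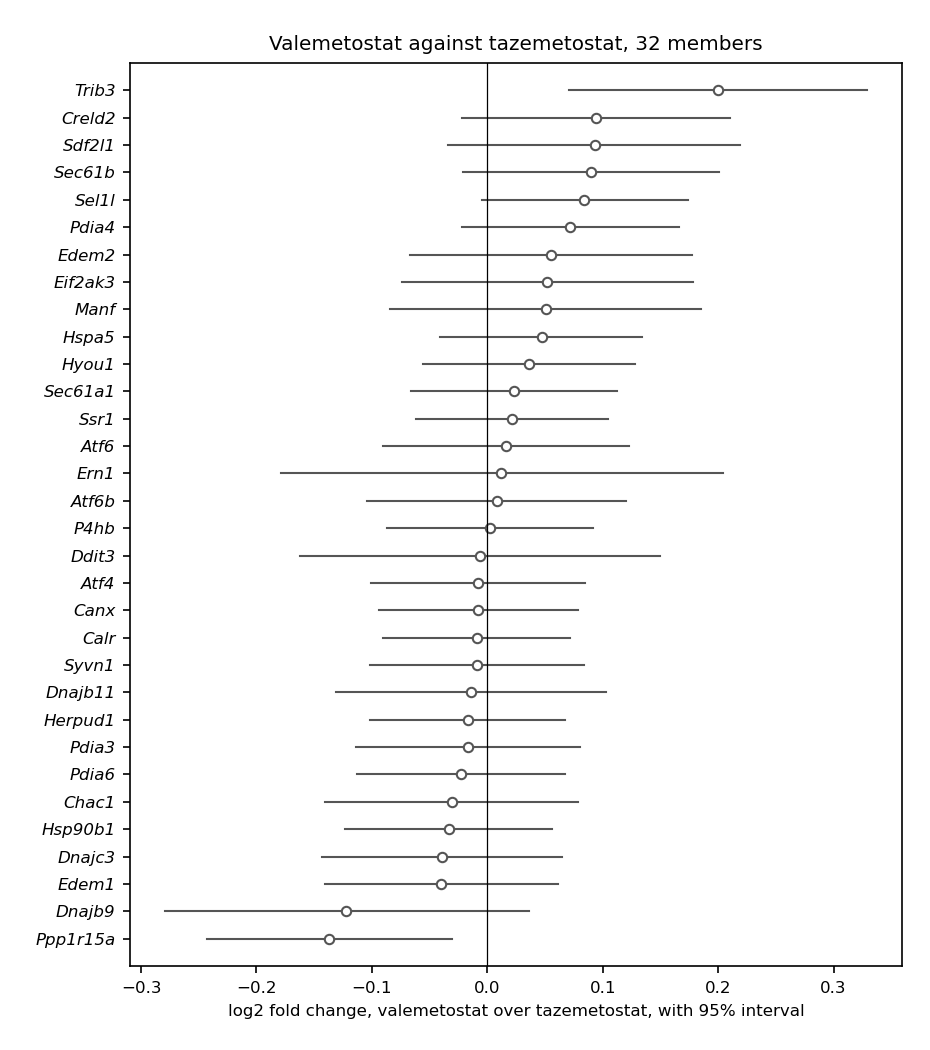
Log2 fold change of valemetostat over tazemetostat (horizontal axis, points) with its 95% interval (lines) for the 32 tested members, ordered by size. The intervals of 30 members include 0, that of Trib3 lies above 0 (0.07 to 0.33) and that of Ppp1r15a below 0 (-0.24 to -0.03), and neither passed after adjustment.

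Other genes of the pathway were read from lists that do not overlap with the members. Among 35 tested targets of ATF4 outside the members, 2 were called higher and 19 lower with tazemetostat, and 4 higher and 17 lower with valemetostat, or 54.3% and 48.6% lower, beside 18.2% and 18.7% of all tested genes. The median log2 fold change was -0.16 and -0.13. Slc6a9, a glycine transporter gene, had 32.8, 33.2 and 37.1 CPM with tazemetostat, 35.2, 35.2 and 33.8 CPM with valemetostat, and 55.4, 46.1 and 45.2 CPM with DMSO, and fell by 0.51 and 0.50 on the log2 scale (adjusted p = 5.51e-06 and 8.68e-06). By the larger of the 2 fold changes Sesn2, a stress-induced inhibitor of the growth kinase mTORC1, followed at -0.42 and -0.39. Slc7a1, a cationic amino acid transporter gene, came next at -0.31 and -0.41. Of the 12 tested aminoacyl-tRNA synthetase genes on the list, 6 were called lower with both inhibitors (Lars, Iars, Wars, Cars, Eprs and Aars) and 4 were called with neither. Yars was called lower with tazemetostat only, and Mars1 was called higher with valemetostat (0.15, adjusted p = 0.00858). In neither gene were the inhibitors shown to differ (adjusted p = 0.931 and 0.806). Ndrg1 (1.61 and 1.43) and Cth, a gene of cysteine synthesis (0.29 and 0.31), were the targets called higher with both. Slc7a11, Vldlr and Stc2 were not tested, and in DMSO they had 0 counts in all 3 libraries.

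Among 21 tested regulators of the response, 1 was called higher and 3 lower with tazemetostat, and 3 higher and 5 lower with valemetostat. With tazemetostat these shares, 4.76% and 14.3%, were below the 19.9% and 18.2% of all tested genes, and with valemetostat, at 14.3% and 23.8%, they stood beside 20.5% and 18.7%. Cebpg, the dimer partner of ATF4, was lower at -0.36 and -0.38 (adjusted p = 4.63e-06 and 2.31e-06). Nfe2l1, an ER-bound transcription factor for proteasome genes, was lower at -0.26 and -0.27, and Ppp1r15b, the constitutive counterpart of Ppp1r15a, at -0.19 and -0.21. Cebpb, a transcription factor gene that is low here, had 5.87, 5.64 and 5.76 CPM with tazemetostat, 4.9, 6.52 and 7.31 CPM with valemetostat, and 3.39, 4.15 and 4.32 CPM with DMSO, and was called higher at 0.55 and 0.66 (adjusted p = 0.01 and 0.00221). Xbp1, named for its place between Ern1 and the chaperones after its values were seen, had 158, 161 and 174 CPM with tazemetostat, 181, 191 and 179 CPM with valemetostat, and 159, 161 and 157 CPM with DMSO. Xbp1 was called higher with valemetostat (0.21 ± 0.05, adjusted p = 0.00084) and not with tazemetostat (0.05 ± 0.05, adjusted p = 0.449). For Xbp1 the inhibitors were not shown to differ (0.16 ± 0.05, adjusted p = 0.213). Gene counts hold no measure of the spliced form of Xbp1.

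Folding, ERAD and translocon genes outside the members were counted in the same way. Of 29 tested folding genes 6 were called higher and 2 lower with tazemetostat, and 8 higher and 3 lower with valemetostat. The shares called higher were 20.7% and 27.6%, beside 19.9% and 20.5% of all tested genes, and the shares called lower were 6.9% and 10.3%, beside 18.2% and 18.7%. With the length and GC offset the counts were 5 higher and 4 lower with tazemetostat and 6 higher and 3 lower with valemetostat. Ranked by the larger of the 2 fold changes, the highest called with both were Cnpy3, Sil1 and Erp29. Cnpy3, a chaperone of Toll-like receptors, stood at 0.40 and 0.35, and Sil1, a nucleotide exchange factor of BiP, at 0.29 and 0.42. Erp29, an ER protein of the thioredoxin fold, stood at 0.34 and 0.39, and Txndc11 was lower (-0.24 and -0.13). Of 26 tested ERAD genes 0 were called higher and 8 lower with tazemetostat, and 1 higher and 8 lower with valemetostat. The share called lower was 30.8% with each, beside 18.2% and 18.7% of all tested genes. Ranked likewise, the lowest called with both was Man1b1, a mannosidase gene (-0.30 and -0.21). Nploc4, which encodes a cofactor of the extraction ATPase p97 (-0.17 and -0.22), and Ubxn4 (-0.20 and -0.16) followed. Of 30 tested genes of the translocon, signal peptide processing and N-glycosylation, 8 were called higher and 1 lower with each inhibitor, or 26.7% higher, beside 19.9% and 20.5% of all tested genes. With the length and GC offset the counts were 6 higher and 3 lower with tazemetostat and 6 higher and 5 lower with valemetostat, and the medians were -0.02 and -0.03 in place of 0.03 and 0.02. By the larger of the 2 fold changes, the largest rises were in Sec61g (0.27 and 0.31), Spcs1 (0.20 and 0.29) and Ssr4 (0.19 and 0.29). Sec61a2, a paralogue of Sec61a1, was lower (-0.30 and -0.43). Of 5 tested transcripts known from other cells as substrates of IRE1 decay, 2 were called higher with each inhibitor and 0 lower. The share called higher was 40%, beside 19.9% and 20.5% of all tested genes, and decay by IRE1 was not tested. The classic substrate Bloc1s1 had 14.3, 13.6 and 14 CPM with tazemetostat, 15.5, 16.6 and 14.4 CPM with valemetostat, and 16.3, 11.7 and 13.7 CPM with DMSO and was not called, while Col6a1 rose by 3.32 on the log2 scale with both.

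Of the plasma cell markers, Jchain and Irf4 were lower in the same libraries as the ERAD and ATF4 arm genes. The others tested were not called lower. Of 10 listed markers 8 were tested, 0 were called higher and 2 lower with tazemetostat, and 1 higher and 2 lower with valemetostat. The shares called lower, 25% with each, stood beside 18.2% and 18.7% of all tested genes. Those called higher, 0% and 12.5%, stood beside 19.9% and 20.5%. The median log2 fold change of the 8 was -0.09 with tazemetostat and -0.01 with valemetostat, with 3 positive and 5 negative values in each. The summed level of the listed markers was 1282 to 1341 CPM with tazemetostat, 1351 to 1397 CPM with valemetostat and 1503 to 1573 CPM with DMSO. Most of that sum came from Jchain and Irf4. Jchain, the joining chain of polymeric antibodies, had 522, 506 and 519.6 CPM with tazemetostat, 543, 557 and 545 CPM with valemetostat, and 603, 624 and 683 CPM with DMSO. Irf4, a transcription factor of plasma cell formation, had 318, 291 and 292 CPM with tazemetostat, 291, 289.6 and 314 CPM with valemetostat, and 351, 379 and 372 CPM with DMSO. Both were lower with each inhibitor, without overlap with DMSO, at -0.30 and -0.22 for Jchain and -0.29 and -0.30 for Irf4. The defining markers Sdc1 and Tnfrsf17 stood at or near 0 in every library, at up to 0.087 CPM for Sdc1 and 0.244 CPM for Tnfrsf17. Prdm1, the master regulator of plasma cells, was at 6.11 to 7.76 CPM with tazemetostat, 7.36 to 8.99 CPM with valemetostat and 8.13 to 9.19 CPM with DMSO and was not called. The part of these markers in the results for the module was not tested.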

How the data were processed

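Libraries of poly(A) RNA were primed with random hexamers and read in pairs of 150 nt, per the labels' protocols. The authors deposited whole-number counts per gene and library, and log2 values, which are log2(TPM + 1), since undoing them gives TPM in whole hundredths for 100% of values at a tolerance of 1e-06. Per the submitters' processing notes the reads were placed on mm9. Aligner, counter, strand setting and annotation: not given in the sources used here.

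Counts were tested with edgeR 4.0.16 in R 4.3.3 (TMM scaling, robust quasi-likelihood F test, 1 fit of all 9 libraries in 3 groups, filterByExpr at its settings of 10 counts and a total of 15), with Benjamini-Hochberg adjustment over 12580 genes and calls at an adjusted p under 0.05. Standard errors were derived as |log2 fold change| divided by the root of F. CPM are TMM-scaled, and TPM are from the deposited table. Library pairs within a group differed by 5.26 to 13.3 in chi-square per degree of freedom, so none were merged. Lengths, GC content and shared exon bases came from GENCODE M21, on another build, and promoter windows from RefSeq. The fit was tested on simulated counts.

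Members and lists were chosen with earlier results of these data known. Values in every library are given for Hspa5, Atf4, Ddit3, the sensors, and in each role up to 4 called members with the largest fold changes. From each other list the text names up to 3 genes per direction, among those called with both inhibitors and above 1 log2 CPM. They were ranked by the larger of their 2 fold changes. Further named genes (Xbp1, Bloc1s1, Prdm1, the aminoacyl-tRNA synthetases and untested genes) were chosen after their values were seen. Alternatives were other scalings and filters, DESeq2 1.42.0, limma-trend (limma 3.58.1) on the log2 values, a length and GC offset, a replicate block, fits of 2 groups, and each library left out.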

Additional observations from a re-analysis of the deposited data

How the results depend on the processing

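Under 19 alternatives the calls of Sel1l, Herpud1, Syvn1, Ern1, Chac1, Ddit3, Ppp1r15a and Calr against DMSO changed in none. On the deposited log2(TPM + 1) values 1 member was called higher with tazemetostat, in place of 6, and 2 with valemetostat, in place of 9. Over all tested genes 1177 and 1191 were called higher on that scale, in place of 2508 and 2577. The cause was not tested. Members called higher in valemetostat against tazemetostat numbered 1 with no filter on counts (Trib3) and 0 to 1 with a library left out, in place of 0. With the length and GC offset, values for valemetostat against DMSO reversed to -0.13 for Sdf2l1 and 0.13 for Ssr1 (0.13 for Ssr1 also with the offset and the replicate block), and the cause was not tested. Leaving out a library gave 5 to 9 members higher and 9 to 10 lower with tazemetostat, and 6 to 10 higher and 8 to 11 lower with valemetostat. The replicate block gave 6 higher and 10 lower with tazemetostat and 8 higher and 11 lower with valemetostat. Over all tested genes, libraries with the same number did not deviate together (correlations from -0.040 to 0.076). These correlations cannot exclude a link between such libraries that touches few genes. Depth limits Asns, at 2 counts in all, and 3 libraries a group limit differences between the inhibitors.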
